A study of Rattus norvegicus with 9 samples.

Results

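Ion channel genes were followed across age in RNA from cultured rat cardiac fibroblasts, the connective tissue cells of the heart. They were taken by symbol alone from the gene table: potassium channel genes named Kcn, sodium channel genes named Scn, voltage-gated calcium channel genes named Cacn, Trpc, Trpm and Trpv cation channels, Clcn chloride channels and transporters, Hcn pacemaker channels, Piezo channels and Ano (anoctamin) genes. The rule found 165 of the 17337 genes. It uses no measured value, but it was chosen with earlier results of these data known. Of these, 77 had enough counts to be tested and 88 did not.

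The cells were P0 cultures from Sprague Dawley rats, and each of the 3 ages had 3 RNA libraries. Hearts at embryonic day 18 gave the fetal cells, hearts at postnatal day 1 the neonatal cells and rats aged 7 weeks the adult cells. All were grown to confluency in the same medium, with serum, ascorbic acid and antibiotics, so every group shares growth on plastic in serum. No treatment, transgene or sorting step is given in the labels. Nor do the labels say whether the 3 libraries of an age came from separate animals or separate cultures, so the p-values measure the spread between these libraries, which may be technical. The design compares the ages with each other.

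Ion channels are membrane proteins that let selected ions cross when voltage, a ligand, calcium, temperature or stretch opens them. In the heart, sodium, calcium and potassium channels shape the action potential of the muscle cell, and inward rectifier and tandem-pore potassium channels hold its resting potential. Fibroblasts do not fire action potentials, but they carry potassium channels, transient receptor potential channels, stretch-gated Piezo channels and chloride channels that set their membrane voltage, calcium entry and response to stretch.

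The libraries held 13392825 to 22850491 counts, with the adult libraries the shallowest (13392825 to 13810825). Ion channel genes made up 0.142% to 0.162% of the counts in each library. Their summed level was similar at the 3 ages, from 1354 to 1654 CPM (the read count scaled to library depth with edgeR's TMM factors, as in all CPM values here). At least 1 count was found for 119 to 139 ion channel genes per fetal library, 122 to 130 per neonatal library and 94 to 99 per adult library, whose lower depth was not evened out for this number. Fetal replicate 3 stood apart from fetal replicates 1 and 2: the root mean square difference in log2 CPM was 0.73 and 0.72, against 0.23 between the other two. Epithelial markers summed to 394.7 CPM in it and to 23.7 and 26.5 CPM in the other fetal libraries. Adult replicate 1 also differed from its group, though less. Its root mean square difference was 0.45 and 0.53 from adult replicates 2 and 3, against 0.38 between those. The 10 fibroblast genes summed to 22236 to 74193 CPM, most of it from Col1a1 and Col3a1, and Col1a2 was listed near 0 throughout. Fetal means of Tcf21, Dcn and Thy1 were 11.8, 50.1 and 76.9 CPM. Those of Pdgfra, Lum, Ddr2 and Postn were 121.9, 123.9, 217.9 and 974.2 CPM. From fetal to adult, 4 of the 10 were higher (40%, beside 34.9% of all genes) and 3 lower (30%, beside 35.5%). Markers of other cells moved with age as well. The 12 cardiomyocyte genes summed to 8039 to 12094 CPM in fetal, 5534 to 6106 CPM in neonatal and 306 to 320 CPM in adult libraries. The 14 macrophage genes summed to 15.8 to 82 CPM, 178 to 197 CPM and 4946 to 6904 CPM.

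Most tested ion channel genes differed between adult and earlier cultures, and more of them were lower in adults than higher. From fetal to adult, 39 of the 77 tested genes were lower, 22 were higher and 16 did not pass the test (edgeR quasi-likelihood test, Benjamini-Hochberg adjusted p below 0.05 over all 11337 genes tested). That is 79.2% of the tested ion channel genes, beside 70.5% of all genes tested, of which 34.9% were higher and 35.5% lower. From neonatal to adult, 37 were lower, 15 higher and 25 not called (67.5%), beside 63.5% of all genes, 31.6% higher and 31.8% lower. From fetal to neonatal, 22 were lower, 16 higher and 39 not called (49.4%), beside 36.3% of all genes, 18.3% higher and 18% lower. A gene that passed the filter on low counts through its high age alone had to differ, so these counts describe the tested genes and support no statement on the family.

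Many of the differences were large, but a gene that passed the filter on low counts through its high age alone had to show a large fold. The shares and medians here, and the step patterns below, therefore describe the tested genes alone and support no statement on the family. Called differences of at least 1 on the log2 scale, that is 2-fold or more, came to 54 of 77 between fetal and adult (70.1%, beside 32.4% of all genes), 44 between neonatal and adult (57.1%, beside 25%) and 29 between fetal and neonatal (37.7%, beside 11.2%). The median log2 fold change was -1.0 from fetal to adult, -0.95 from neonatal to adult and -0.30 from fetal to neonatal, where the medians over all genes were -0.013, -0.0064 and -0.0053. With genes at 0 in an age set to their bound the neonatal to adult median was -0.84. In the same order, 61, 60 and 52 of the 77 genes (79.2%, 77.9% and 67.5%) had no overlap between the ages compared, beside 71.8%, 76.1% and 57.4% of all genes. Some difference among the 3 ages passed the test for 77.6% of all genes.

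**Figure D1:**
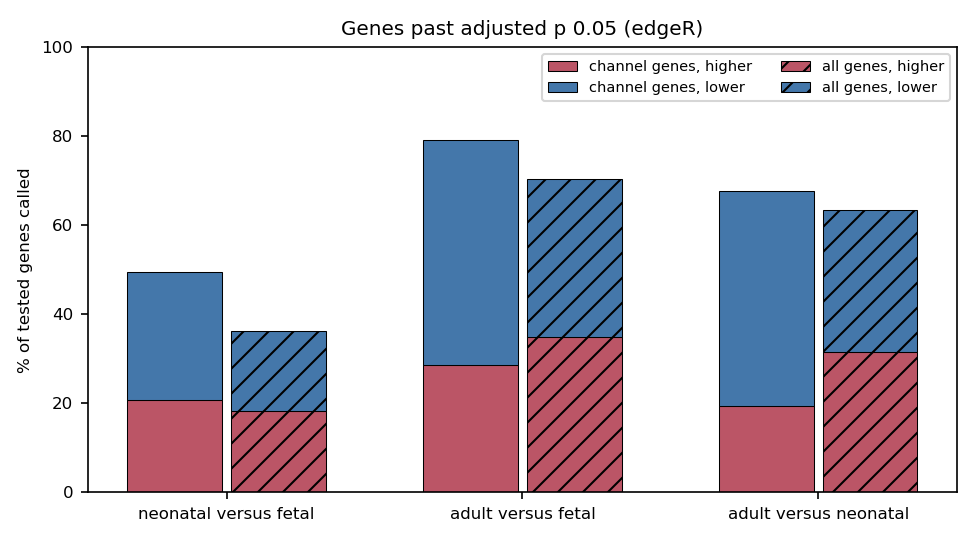
Share of tested genes past an edgeR adjusted p of 0.05 in each pair of ages (vertical axis, percent), with the part higher and the part lower in the later age stacked, for the 77 ion channel genes (plain bars) and all 11337 genes (hatched bars). In both comparisons with the adult, the lower part was larger than the higher part for ion channel genes, while for all genes the parts were nearly equal.

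Over the 3 pairs of ages, 17 genes fell at each step, lower in neonatal than fetal and in adult than neonatal libraries (22.1%, beside 7.99% of all genes), among them Ano1, Cacna1c, Cacna1g, Cacna1h, Cacna1s, Cacnb2, Clcn3, Hcn4, Kcnb2, Kcng4, Kcnh2, Kcnj11, Kcnj5, Kcnk3, Kcnq5 and Trpm8. Of those named, the fetal to neonatal call was lost when certain libraries were left out for Cacnb2 (highest adjusted p 0.0627), Clcn3 (0.106), Kcnb2 (0.0697), Kcnj11 (0.0824), Kcnk3 (0.145), Kcnq5 (0.0696) and Trpm8 (0.104). A neonatal library was among those in each case, replicate 2 or 3 for Kcnb2 and replicate 1 for the other genes. Another 5 rose at each step (6.49%, beside 8.19% of all genes): Clcn7, Kcnab2, Kcns3, Trpv2 and Trpv4. Ano4, Cacna1b, Kcnmb1 and Trpm4 were higher in neonatal libraries than in both other ages (5.19%, beside 4.53% of all genes). The adult stood apart, with no call between fetal and neonatal, for 16 genes that were lower in it (20.8%, beside 17.2% of all genes) and 8 that were higher (10.4%, beside 17%). No pair of ages differed past the threshold for 9 tested genes (11.7%, beside 18.4% of all genes): Hcn2, Kcna7, Kcnab1, Kcnd3, Kcne2, Kcnj14, Kcnmb4, Kcnn1 and Kcnt2.

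Promoter sequence was read for genes with large fitted changes between fetal and adult cultures. RefSeq promoters of the GRCr8 rat assembly matched 118 of the 165 genes (130 start sites). Shown are the 250 bases before the start, 5′ to 3′, of genes picked by fitted log2 fold change. They are the matched genes among the 6 largest falls (Kcnj5, Trpm8) and the 3 largest matched rises (Trpm2, Kcnk13, Trpv2). The windows lie at chr8:39011097-39011346, minus strand (Kcnj5), chr9:96351433-96351682, plus strand (Trpm8), chr20:10704222-10704471, plus strand (Trpm2), chr6:124971559-124971808, plus strand (Kcnk13) and chr10:47771973-47772222, plus strand (Trpv2). Kcnj5 and Trpm8 had no adult count, so their fitted falls are not measured folds. Trpm8 was low in fetal cultures too, and its bound, given below, is far smaller than its fitted fall. Ano1, with counts in every adult library, fell 93.2-fold and is not shown. Capitals mark any of 5 letter strings, searched on both strands. The string GGGCGG is the core read by Sp1 family factors. The core promoter element read by the TATA-binding protein was searched as TATAAA. The purine-rich core of PU.1, a myeloid factor, was searched as GAGGAA. A part of the element of the neuronal repressor REST was searched as CAGCACC, and an E-box of muscle factors as CAGCTG. No marked strings overlap.
Kcnj5: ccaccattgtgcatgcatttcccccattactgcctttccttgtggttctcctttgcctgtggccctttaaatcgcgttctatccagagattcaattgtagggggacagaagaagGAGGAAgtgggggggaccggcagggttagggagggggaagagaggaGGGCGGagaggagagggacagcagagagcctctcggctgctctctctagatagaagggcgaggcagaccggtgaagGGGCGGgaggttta
Trpm8: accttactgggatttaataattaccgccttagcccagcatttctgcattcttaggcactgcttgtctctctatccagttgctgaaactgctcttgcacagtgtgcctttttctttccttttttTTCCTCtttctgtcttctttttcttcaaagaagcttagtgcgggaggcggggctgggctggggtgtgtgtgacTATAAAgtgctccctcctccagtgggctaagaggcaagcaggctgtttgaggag
Trpm2: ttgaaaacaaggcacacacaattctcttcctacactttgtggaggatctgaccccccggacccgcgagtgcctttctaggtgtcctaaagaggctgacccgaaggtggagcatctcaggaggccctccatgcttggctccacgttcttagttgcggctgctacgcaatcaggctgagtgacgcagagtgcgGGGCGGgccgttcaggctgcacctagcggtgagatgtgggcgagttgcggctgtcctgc
Kcnk13: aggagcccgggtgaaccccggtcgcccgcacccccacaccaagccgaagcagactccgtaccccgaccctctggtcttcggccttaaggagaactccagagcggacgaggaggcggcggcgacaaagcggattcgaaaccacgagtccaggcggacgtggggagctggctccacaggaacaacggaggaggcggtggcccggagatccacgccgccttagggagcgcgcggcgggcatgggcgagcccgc
Trpv2: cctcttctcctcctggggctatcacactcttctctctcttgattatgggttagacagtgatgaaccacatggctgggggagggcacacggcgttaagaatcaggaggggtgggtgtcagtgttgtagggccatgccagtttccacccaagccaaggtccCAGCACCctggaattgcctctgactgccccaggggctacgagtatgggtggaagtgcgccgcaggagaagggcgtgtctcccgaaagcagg
The windows differ in base composition, with a GC content of 48% for Trpm8, 57.2% for Kcnj5, 58.4% for Trpv2, 59.2% for Trpm2 and 69.6% for Kcnk13. Kcnj5 has the Sp1 core at -90 and -14 and the PU.1 core at -136, counted from the start to the string's leftmost base. Trpm8 has TATAAA at -54 and the PU.1 core on the other strand at -127. In Trpm2 the Sp1 core lies at -59, in Trpv2 the REST part lies at -91, and the Kcnk13 window holds none of the 5 strings.

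Over all matched start sites the Sp1 core GGGCGG was in 14 of 20 promoters of genes higher in adult than fetal cultures (70%), in 12 of 31 of genes lower (38.7%), in 58 of 130 of all ion channel genes (44.6%) and in 30.5% of the 33469 promoters in the table. The PU.1 core was in 5 of the 20 (25%), 11 of the 31 (35.5%) and 23.3% of all promoters, and CAGCTG in 4 of the 20 (20%), 6 of the 31 (19.4%) and 12% of all. TATAAA was in 5.38% of ion channel promoters against 12.9% of all, and CAGCACC in 5.38% against 5.43%. Median GC content was 62.2% for the genes that were higher, 60% for those lower, 59.6% for all ion channel genes and 51.2% for all promoters. A match says that the letters are present, and several start sites belong to the same gene.

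Among the sodium channel genes, Scn7a rose between fetal and neonatal cultures, while Scn1a, Scn2a, Scn3b and Scn4b were lower in adult than fetal cultures. Scn7a (chr3:52775779-52849911, minus strand, rn6), the sodium-sensing relative of the voltage-gated channels, was at 2.32, 3.44 and 1.06 CPM in the fetal libraries, 27.8, 33.8 and 32.9 CPM in the neonatal libraries and 35.8, 32.5 and 28.7 CPM in the adult libraries. Fetal libraries were low and the other 2 ages high, with no overlap, and neonatal and adult libraries overlapped. The rise from fetal to neonatal was 3.76 on the log2 scale (edgeR adjusted p = 4.89e-05) and the adult to neonatal difference 0.04 (edgeR adjusted p = 0.903). Per kilobase of exon, mean Scn7a was 0.347, 4.81 and 4.94 CPM in fetal, neonatal and adult cultures. In such bulk cultures, fewer cells of a type and less RNA per cell cannot be told apart.

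The brain sodium channel genes Scn1a and Scn2a were low and fell from fetal to adult cultures. Scn1a held 0, 0 and 2 counts in the adult libraries and fell 22.1-fold, with a 95% interval of 5.89 to 187 (exact Poisson, counting error only; edgeR adjusted p = 0.00142). The log2 fold change of Scn2a was -1.61 (edgeR adjusted p = 0.003). Beta subunits bind the pore and set its gating and surface level. Of these, Scn3b was at 12.6, 14.4 and 20.8 CPM (fetal), 8.86, 8.64 and 9.9 CPM (neonatal) and 0.153, 1.3 and 0.524 CPM (adult). Its adult libraries lay below all the others (adult versus fetal -4.56, edgeR adjusted p = 1.35e-05), and Scn4b was also lower in adults (-3.00, edgeR adjusted p = 0.000809). Without adult replicate 2 these log2 fold changes were -5.52 and -3.77.

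Most tested voltage-gated calcium channel genes were lower in adult than fetal cultures. Of the 8 alpha1 (pore) genes tested, 5 fell from fetal to adult (62.5%, beside 35.5% of all genes). Of the others, 1 rose (12.5%, beside 34.9% of all genes) and 2 were not called. The filter on low counts also acts within each class, so the class counts here and below describe the tested genes alone. Both alpha2delta genes tested fell (100%, beside 35.5% of all genes). The beta genes divided, with Cacnb2 down, Cacnb3 up and Cacnb1 not called between fetal and adult. Summed alpha1 transcripts were 24.5 to 25.1 CPM per kb in fetal, 10.5 to 11.7 in neonatal and 4.89 to 5.78 in adult libraries, with no overlap.

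Cacna1c (chr4:150641066-151269159, minus strand), the L-type pore of heart muscle, was at 98.4, 95.6 and 75 CPM in the fetal libraries, 41.5, 46.3 and 43.9 CPM in the neonatal libraries and 19.7, 22.8 and 18.9 CPM in the adult libraries. The 3 ages were separate, and it remained the most abundant alpha1 gene per kilobase at each age (10.9, 5.32 and 2.47 CPM per kb). Its adult to fetal log2 fold change was -2.13 (SE 0.12, edgeR adjusted p = 4.33e-07). The L-type gene of skeletal muscle, Cacna1s, was at 16, 18.2 and 17.8 CPM (fetal), 2.97, 2.65 and 3.95 CPM (neonatal) and 0.0765, 0.289 and 0 CPM (adult). Between fetal and adult cultures it fell 140.2-fold, with a 95% interval of 59.9 to 433 (exact Poisson), and the adult libraries held 1, 4 and 0 counts. The fitted log2 fold change was -7.05, and -8.59 without adult replicate 2. Cacna1d, the L-type pore of pacemaker and endocrine cells, was low and lower in adults (-1.69, edgeR adjusted p = 0.00113).

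Of the T-type genes, whose channels open near the resting potential, Cacna1g was at 37.6, 42.1 and 53.4 CPM (fetal), 13.8, 16.1 and 19.2 CPM (neonatal) and 9.18, 7.51 and 7.34 CPM (adult). Cacna1h was at 27.9, 28.1 and 36.9 CPM (fetal), 7.87, 8.97 and 8.29 CPM (neonatal) and 4.74, 3.9 and 2.55 CPM (adult). Both fell at each step without overlap. The adult to fetal log2 fold changes were -2.47 for Cacna1g (edgeR adjusted p = 1.87e-06) and -3.05 for Cacna1h (edgeR adjusted p = 1.46e-06), which shares exon bases with Tpsg1, where the counting assigns no reads. Among the P/Q-, N- and R-type genes, known mainly from nerve endings, Cacna1a rose from fetal to adult (0.90, edgeR adjusted p = 0.00598), and Cacna1b was highest in neonatal libraries (13.5, 13.8 and 12 CPM) against 6.05, 5.73 and 3.93 CPM in fetal and 4.59, 5.27 and 4.34 CPM in adult ones.

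Among the accessory genes, Cacnb2, Cacna2d1 and Cacna2d2 were low in adults and Cacnb3 was not. Cacnb2 (chr17:81798414-82019219, plus strand), the main beta subunit of heart muscle, was at 22.8, 28.5 and 25.3 CPM in the fetal libraries, 13.8, 15.3 and 14.4 CPM in the neonatal libraries and 0, 0.361 and 0.225 CPM in the adult libraries. Adult libraries held 0, 5 and 3 counts, and the ratio of fetal to adult was 129.7-fold, with a 95% interval of 65.6 to 301 (exact Poisson; edgeR adjusted p = 1.93e-07). Its fitted log2 fold change was -6.96, and -7.73 without adult replicate 2. Cacnb3, a beta subunit of smooth muscle and nerve, was the abundant beta gene, at 70.7, 67.8 and 54.1 CPM (fetal), 89.2, 91.2 and 90.4 CPM (neonatal) and 104, 87.5 and 88.9 CPM (adult). It was modestly higher in the 2 later ages (adult versus fetal 0.54, edgeR adjusted p = 0.00137), and the sum over beta genes was 29.8 to 36.1 CPM per kb in fetal and 37 to 42.8 in adult libraries. Cacna2d1, the alpha2delta subunit that brings the pore to the membrane, was at 46.5, 54.8 and 60.7 CPM (fetal), 46, 46.5 and 38.3 CPM (neonatal) and 12, 10.5 and 10.3 CPM (adult). Cacna2d2 was at 23.5, 23.6 and 11.5 CPM (fetal), 17.7, 21.1 and 21.4 CPM (neonatal) and 1.45, 1.3 and 1.27 CPM (adult). For both, fetal and neonatal libraries were high and adult ones low, with adult to neonatal log2 fold changes of -1.99 (edgeR adjusted p = 1.81e-06) and -3.89 (edgeR adjusted p = 6.97e-06). None of the 8 gamma genes was tested, and each had 56 counts or fewer over the 9 libraries.

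Voltage-gated potassium channel genes made up the largest class, with 39 members, of which 15 were tested. From fetal to adult, 9 of the 15 fell (60%, beside 35.5% of all genes), 3 rose (20%, beside 34.9%) and 3 were not called. The delayed rectifier genes of the cardiac action potential fell, the transient outward gene Kcnd3 was called in no pair of ages, and the silent subunits Kcnv2 and Kcns3 rose.

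Kcnq1 (chr1:216293087-216630339, plus strand), the slow delayed rectifier pore, was at 14.8, 17.5 and 10.1 CPM in the fetal libraries, 10.6, 10.6 and 12.2 CPM in the neonatal libraries and 0, 0.217 and 0.374 CPM in the adult libraries. Fetal and neonatal libraries overlapped, and the adult libraries held 0, 3 and 5 counts. The adult level was lower than the neonatal one 55.7-fold, with a 95% interval of 28.1 to 129.6 (exact Poisson; log2 fold change -5.76, edgeR adjusted p = 6.5e-06, and -6.56 without adult replicate 3). Kcnh2 (chr4:7355601-7387241, plus strand), the rapid delayed rectifier pore, was at 14.1, 12.7 and 21.7 CPM in the fetal libraries, 6.11, 6.78 and 7.19 CPM in the neonatal libraries and 0.689, 1.08 and 0.524 CPM in the adult libraries. Here the ages fell apart into 3 levels, with log2 fold changes of -1.27 from fetal to neonatal (edgeR adjusted p = 0.00341) and -3.11 from neonatal to adult (edgeR adjusted p = 2.48e-05). Kcnq5, an M-current gene, fell at each step in the same way (adult versus fetal -4.10, edgeR adjusted p = 1.36e-06).

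Of the Kcnd genes, which encode the fast transient outward current, Kcnd3 was the abundant member at 50.1, 51.9 and 23.6 CPM (fetal), 68.6, 70.1 and 71.4 CPM (neonatal) and 73.5, 46.3 and 42.2 CPM (adult). Fetal libraries lay below neonatal ones, adult ones overlapped both, fetal replicate 3 and adult replicate 1 stood off from their groups, and no pair passed the test (adult versus fetal 0.37, edgeR adjusted p = 0.296). Kcnd2 was at or below 1.41 CPM in every library and had no count in the adult ones, at least 5.22-fold lower than in fetal cultures (3 counts in each adult library as the floor; edgeR adjusted p = 0.000496). Kcnd1 rose from 10.8 ± 1.47 CPM (mean ± SD, n = 3) to 22.2 ± 4.96 CPM in adults (1.04, edgeR adjusted p = 0.000442). Among other pores, Kcna6 was lower in adults (-1.65, edgeR adjusted p = 0.0106), at 1.3, 6.21 and 7.11 CPM.

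Kcnv2, a subunit that conducts only when joined to Kv2 pores, was at 14, 14.5 and 2.02 CPM (fetal), 41.8, 41.4 and 42.3 CPM (neonatal) and 46, 53.7 and 61.6 CPM (adult). Fetal libraries were below all others, and replicate 3 was far below its own group. The adult to fetal log2 fold change was 2.39 (edgeR adjusted p = 0.00243). The Kv2 pore gene Kcnb2 fell at each step, with an adult to fetal log2 fold change of -3.86 (edgeR adjusted p = 2.46e-05). Kcns3, another silent subunit, rose at each step, from 1.14 ± 0.412 CPM to 3.64 ± 0.498 CPM and 6.89 ± 0.983 CPM (adult versus fetal 2.59, edgeR adjusted p = 2.53e-05). Kcng2 and Kcng4, also silent, fell, and Kcng4 had no adult count. Kcnh1, a channel tied to cell proliferation, was lower in neonatal than fetal cultures (-2.37, edgeR adjusted p = 0.0158). Its fetal libraries were at 1.62, 1.46 and 4.04 CPM, and without fetal replicate 3, the highest, the log2 fold change was -1.77.

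**Figure D2:**
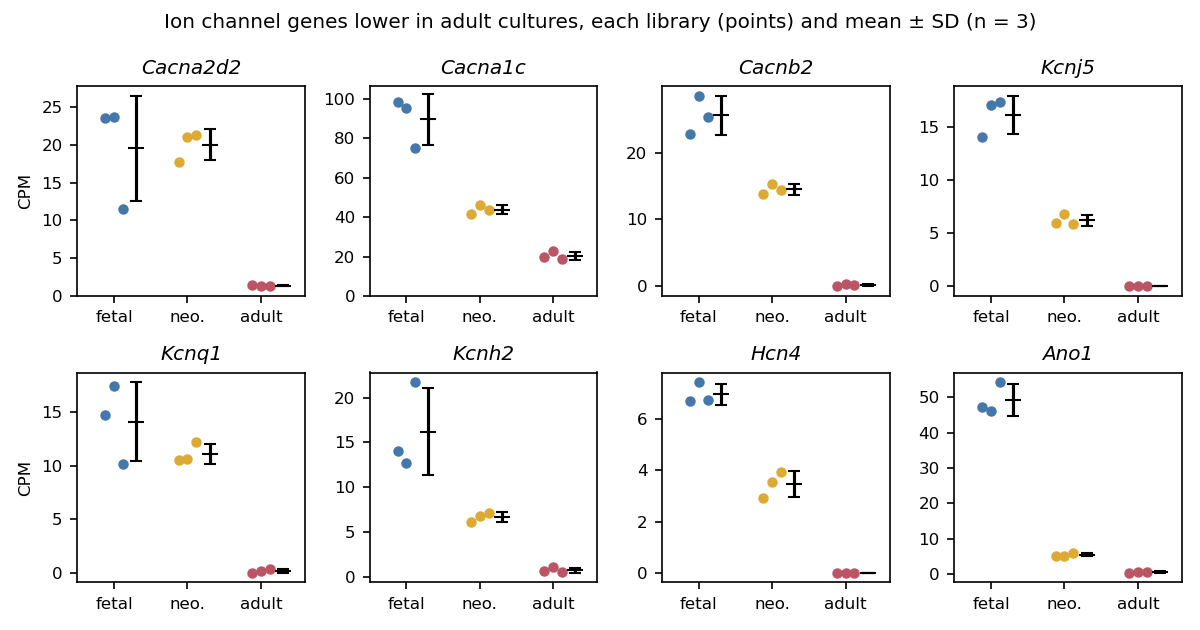
Level of 8 ion channel genes that were lower in adult cultures, in CPM (vertical axis of each panel, linear, starting at or just below 0), for the 3 libraries of each age (points) with mean ± SD beside them. For Cacna1c, Cacnb2, Kcnj5, Kcnh2, Hcn4 and Ano1 the 3 ages form 3 separate levels, while Cacna2d2 and Kcnq1 drop between neonatal and adult libraries.

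Inward rectifier genes, whose channels pass potassium more easily into the cell, moved in both directions, and Kcnj5 and Kcnj11 had no adult count. Of the 6 tested, 3 fell from fetal to adult (50%, beside 35.5% of all genes). Of the others, 1 rose (16.7%, beside 34.9% of all genes) and 2 were not called. Kcnj5 (chr8:33435493-33463410, minus strand), a subunit of the acetylcholine-activated channel of the atria, was at 14.1, 17.1 and 17.4 CPM in the fetal libraries, 6, 6.83 and 5.89 CPM in the neonatal libraries and 0, 0 and 0 CPM in the adult libraries. No adult library had a count, so the adult level was at least 72.3-fold lower than fetal and at least 27.9-fold lower than neonatal against the floor of 3 counts in each library. The test gave edgeR adjusted p = 2.97e-07 and 1.72e-06. Its promoter window, printed above, holds the Sp1 core at 2 places. The partner gene Kcnj3 was too low to test, with 4 to 10 counts in fetal and neonatal libraries and none in adult ones.

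Kcnj11, the pore of the muscle KATP channel, was at 3.24, 3.35 and 5.15 CPM in fetal and 1.82, 1.02 and 1.88 CPM in neonatal libraries and had no adult count. That made it at least 17.5-fold lower than in fetal cultures (edgeR adjusted p = 3.37e-05). Kcnj8, the KATP pore of vascular and stromal cells, did the opposite, at 1.3, 1.23 and 0.531 CPM (fetal), 3.19, 3.21 and 2.85 CPM (neonatal) and 4.36, 2.53 and 2.55 CPM (adult). All fetal libraries were below the others, and the adult to fetal log2 fold change was 1.61 (edgeR adjusted p = 0.00297). Kcnj12, a relative of Kcnj2, fell from fetal to neonatal (-2.04, edgeR adjusted p = 0.0188), a call lost without any of the 3 neonatal libraries (highest adjusted p 0.095), while Kcnj2, the main resting-potential gene of the heart, stayed between 0.929 and 2.6 CPM in all libraries. Kcnj2 was higher in adult than neonatal cultures (1.05, edgeR adjusted p = 0.0165), a call that was lost without neonatal replicate 2 and without adult replicate 2 (highest adjusted p 0.0741).

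Tandem-pore potassium genes, which carry background leak currents, changed members with age while their summed level was 5.58 to 7.71 CPM per kb in fetal and 6.67 to 8.02 in adult libraries. Kcnk2, a stretch- and lipid-sensitive leak channel, was at 14.6, 13.2 and 12.3 CPM (fetal), 15.1, 14 and 15.4 CPM (neonatal) and 3.67, 4.41 and 4.34 CPM (adult). Fetal and neonatal libraries overlapped, and adult ones were about 3 to 4 times lower (adult versus neonatal -1.84, edgeR adjusted p = 3.11e-06). Kcnk3, an acid-sensitive leak channel, was at 1.89, 1.37 and 3.61 CPM (fetal), 0.716, 0.651 and 1.04 CPM (neonatal) and 0.0765, 0 and 0.225 CPM (adult). It held 1, 0 and 3 counts in adult libraries, a fetal to adult ratio of 22.5-fold, with a 95% interval of 8.58 to 83.7. The fitted log2 fold change was -4.42, and -5.69 without adult replicate 3. Kcnk13 (chr6:123974798-124077197, plus strand), a leak channel of microglia and macrophages, was at 0.108, 0.265 and 0.638 CPM in the fetal libraries, 0.33, 0.325 and 0.129 CPM in the neonatal libraries and 10.3, 11.4 and 12.5 CPM in the adult libraries. Adult libraries stood apart from all others, with log2 fold changes of 5.06 from fetal (edgeR adjusted p = 5.59e-06, and 5.82 without fetal replicate 3) and 5.36 from neonatal cultures (edgeR adjusted p = 8.24e-06). Kcnk1, untested, had 62 counts in fetal replicate 3 and 0 to 3 in every other library.

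Calcium-activated potassium channels were represented by Kcnn4 (chr1:81230847-81245980, plus strand), the intermediate-conductance channel of blood cells and proliferating fibroblasts, at 0.756, 0.882 and 2.07 CPM in the fetal libraries, 1.38, 0.744 and 1.29 CPM in the neonatal libraries and 86.6, 93.7 and 94.1 CPM in the adult libraries. Fetal and neonatal libraries overlapped at a low level, and the 3 adult libraries were close together far above them. The log2 fold changes were 6.22 from fetal (SE 0.29, edgeR adjusted p = 1.5e-07) and 6.35 from neonatal cultures (edgeR adjusted p = 2.53e-07), and per kilobase Kcnn4 was the second most abundant ion channel gene in adults (47.3 CPM per kb). Kcnma1, the large-conductance pore, had at most 5 counts in any library. Kcnn3 had at most 7 except for 23 in fetal replicate 3. The sodium-activated Kcnt1 was higher in adult than fetal cultures from a level near the floor (edgeR adjusted p = 0.00755), and Kcnn1 and Kcnt2 were called in no pair.

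Auxiliary potassium subunits followed other courses. Kcnmb1 (chr10:18911938-18919640, plus strand), the smooth muscle beta subunit of the large-conductance channel, was at 9.99, 10.01 and 9.51 CPM in the fetal libraries, 35.6, 35.1 and 34.1 CPM in the neonatal libraries and 4.36, 11.1 and 11.7 CPM in the adult libraries. Neonatal libraries were above all others, by log2 fold changes of 1.83 over fetal (edgeR adjusted p = 0.00123) and a fall of -1.94 to adult (edgeR adjusted p = 0.00026). Mural cell markers, which include smooth muscle genes, summed to 1018 to 1665 CPM in fetal, 2004 to 2054 CPM in neonatal and 223 to 495 CPM in adult libraries, and their part in the Kcnmb1 levels was not tested. Adult replicate 1 was the lowest adult library for both Kcnmb1 and the mural sum. In fetal replicate 3 the mural sum was 1018 CPM against 1619 and 1665 CPM in replicates 1 and 2. Kcnmb1 was 9.51 CPM there against 9.99 and 10.01 CPM. Between fetal and adult libraries Kcnmb1 overlapped, while the mural sums did not. Kcne4, which damps Kcnq1 and Kcna currents, was at 7.13, 7.85 and 2.44 CPM (fetal), 25.5, 28 and 21.3 CPM (neonatal) and 23.6, 16.7 and 16.8 CPM (adult). All fetal libraries were below the later ones, and neonatal and adult libraries overlapped in range (neonatal versus fetal 2.09, edgeR adjusted p = 0.00239). Kcnab2, a cytoplasmic beta subunit, was at 0.918, 0.75 and 0.584 CPM (fetal), 2.48, 1.95 and 1.62 CPM (neonatal) and 11.1, 14.5 and 13.5 CPM (adult). It rose at each step, by 1.42 (edgeR adjusted p = 0.00296) and 2.68 (edgeR adjusted p = 7.8e-06). Kcnip3, a calcium-binding partner of the same Kcnd channels, was lower in adult than fetal cultures (-0.79, edgeR adjusted p = 0.0291), a call lost without fetal replicate 2, neonatal replicate 2 or 3, or adult replicate 3, and in a fit of these 2 ages alone (highest adjusted p 0.108).

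Pacemaker channel genes had 2 tested members. Hcn4 (chr8:63599907-63637324, plus strand), the main pacemaker channel of the sinus node, was at 6.7, 7.45 and 6.75 CPM in the fetal libraries, 2.92, 3.53 and 3.95 CPM in the neonatal libraries and 0, 0 and 0 CPM in the adult libraries. With no adult count, it was at least 31.1-fold lower in adult than fetal and at least 15.5-fold lower than neonatal cultures (edgeR adjusted p = 1.57e-06 and 6.97e-06). Fetal to neonatal it fell by a log2 fold change of -1.01 (edgeR adjusted p = 0.00782). The 4 markers of conduction tissue summed to 37.7 to 43.1, 43 to 50.7 and 28.7 to 30.6 CPM in the fetal, neonatal and adult libraries. Most of the adult sum was Tbx18, which epicardium and fibroblasts also express. Tbx3 had means of 20.3, 2.098 and 2.13 CPM in fetal, neonatal and adult cultures. It was not called between neonatal and adult (edgeR adjusted p = 0.979). In the same order Shox2 had means of 2.25, 1.45 and 0.517 CPM. Isl1 had means of 1.34 and 0.387 CPM in fetal and neonatal cultures and no adult count. The part of these 4 markers in the Hcn4 levels was not tested. Hcn2 was at 9.45, 8.64 and 1.86 CPM (fetal), 12.4, 13.9 and 13.5 CPM (neonatal) and 6.89, 7.44 and 6.37 CPM (adult). Fetal replicate 3 was far below its group, and no pair passed the test (neonatal versus fetal edgeR adjusted p = 0.108).

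Cacna1c, Cacnb2, Kcnq1, Kcnh2, Kcnj5, Kcnj11 and Hcn4, which encode channels of cardiac muscle or pacemaker cells, were lower in adult than fetal cultures. These are not all of the heart channel genes: Kcnd3, Hcn2 and Kcnj2 were not called between fetal and adult, with log2 fold changes of 0.37, 0.05 and 0.54, and Kcnj2 was higher in adult than neonatal cultures, with the limits given above. All 12 cardiomyocyte markers were lower in adult than fetal libraries (100%, beside 35.5% of all genes). In adults Tnnt2 had a mean of 309.6 CPM and made up almost the whole sum, while the other 11, Myh6, Myh7 and Nppa among them, had means of 1.17 CPM or less. The part of cardiomyocyte RNA in these differences was not tested.

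**Figure D3:**
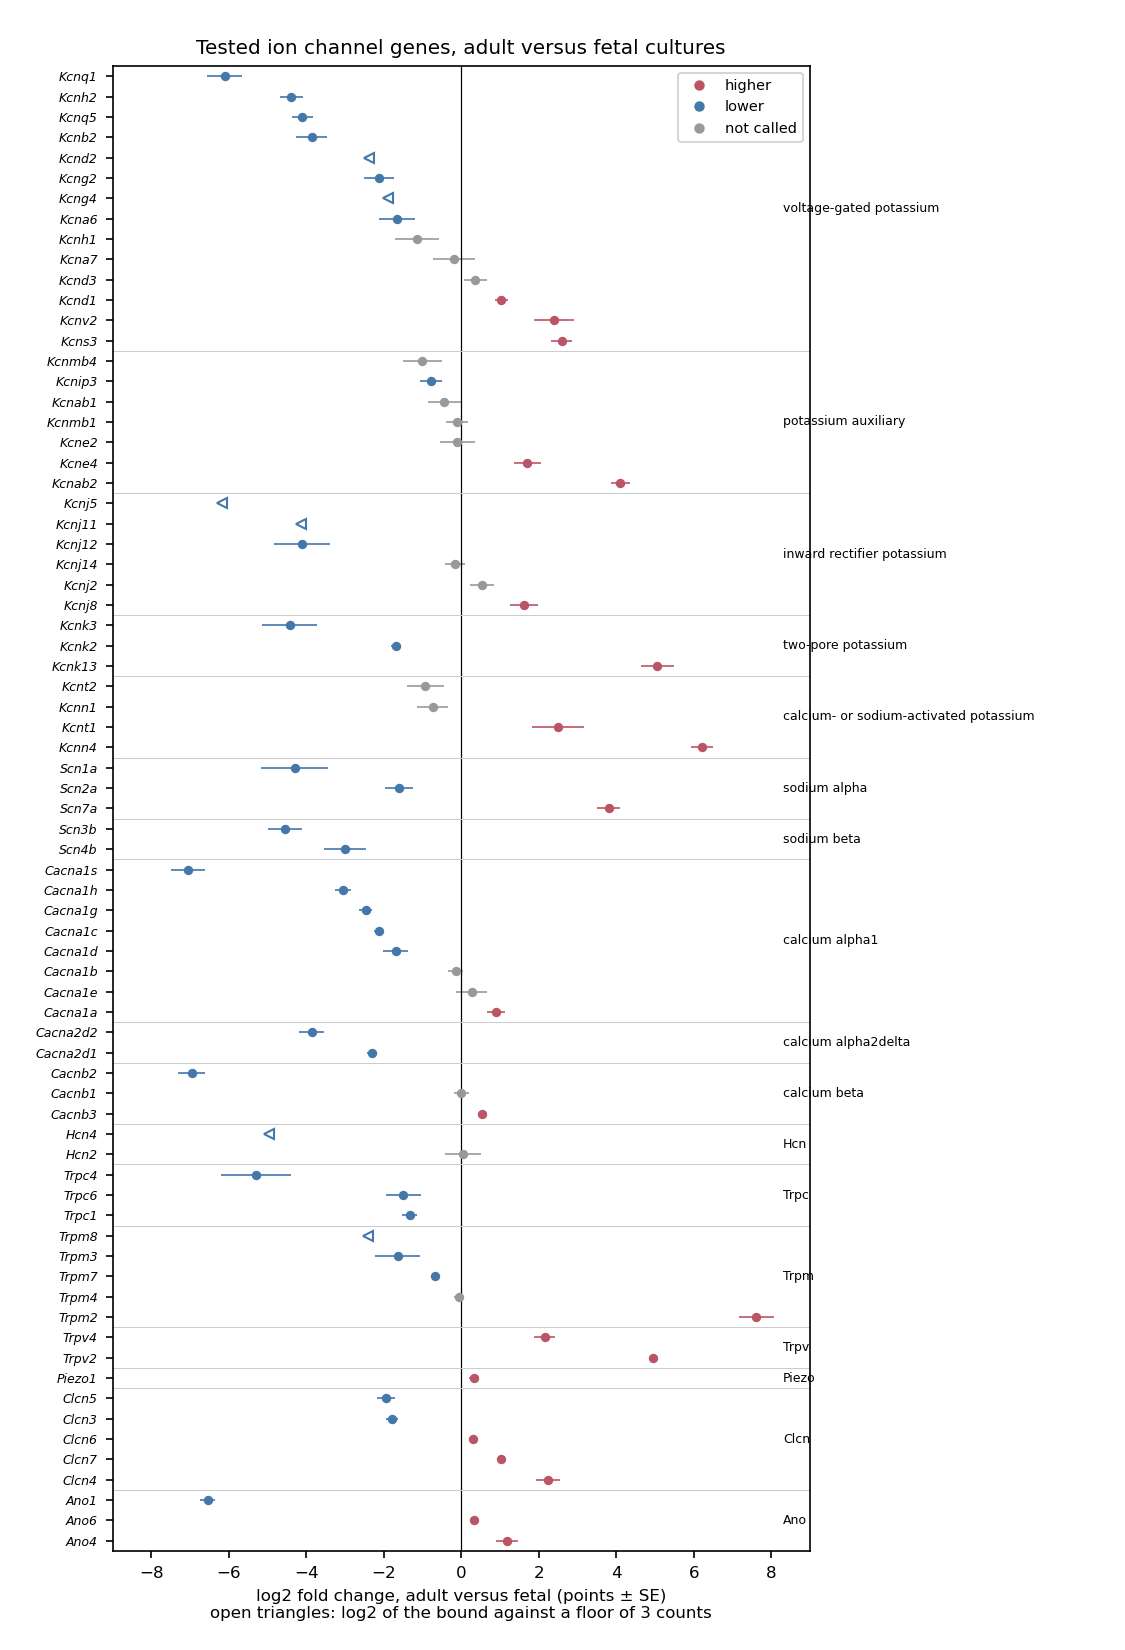
Log2 fold change from fetal to adult cultures (horizontal axis, points ± SE) for 73 of the 77 tested ion channel genes, ordered within their class; blue marks genes lower, red higher and grey not called at an edgeR adjusted p of 0.05, and open triangles give the log2 of the bound for genes with no adult count. Falls run through the sodium, calcium, inward rectifier and voltage-gated potassium classes, and the largest rises are Trpm2, Kcnn4, Kcnk13 and Trpv2.

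Transient receptor potential genes included 2 of the 4 largest rises from fetal to adult (Trpm2 and Trpv2) and several falls. Trpv2 (chr10:48903540-48925036, plus strand), a cation channel that responds to stretch, heat and cannabinoids, was at 8.37, 8.29 and 9.4 CPM in the fetal libraries, 27.7, 27.4 and 24.7 CPM in the neonatal libraries and 286, 261 and 264 CPM in the adult libraries. The ages formed 3 separate levels, with log2 fold changes of 1.62 from fetal to neonatal (edgeR adjusted p = 5.37e-06) and 3.34 from neonatal to adult cultures (SE 0.081, edgeR adjusted p = 5.22e-09). In adults it was the most abundant ion channel gene per kilobase (96.3 CPM per kb, from 3.1 in fetal cultures). Trpv4, an osmotic and stretch sensor, also rose at each step, at 1.3, 1.5 and 1.38 CPM (fetal), 2.37, 3.62 and 2.2 CPM (neonatal) and 7.88, 5.85 and 4.94 CPM (adult). Its adult to fetal log2 fold change was 2.15 (edgeR adjusted p = 8.23e-05), and its fetal to neonatal call was lost without fetal replicate 1 and without neonatal replicate 2 (highest adjusted p 0.102).

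Trpm2 (chr20:11436298-11482051, plus strand), a cation channel opened by ADP-ribose and known from phagocytes, had 0 to 2 counts per fetal or neonatal library and 108, 153 and 189 counts in the adult ones, or 8.27, 11.1 and 14.2 CPM. The ratio of adult to neonatal was 103-fold, with a 95% interval of 46.8 to 281 (exact Poisson; edgeR adjusted p = 1.57e-06). Trpm7, a magnesium- and calcium-permeable channel fused to a kinase, was at 124, 146 and 136 CPM (fetal), 136, 145 and 140.5 CPM (neonatal) and 91, 87.5 and 73.8 CPM (adult). Fetal and neonatal libraries overlapped, and all adult ones were below them (-0.74 from neonatal, edgeR adjusted p = 9.32e-05). Trpm4, a sodium-passing channel opened by calcium, was highest in neonatal libraries, at 29.4, 31.1 and 30.6 CPM, against 25.7, 23.8 and 18.1 CPM (fetal) and 22.4, 22.8 and 19.5 CPM (adult). The call for its fetal to neonatal rise of 0.43 (edgeR adjusted p = 0.0276) was lost under the 2-fold limit and in 4 other alternatives tried (highest adjusted p 0.0848). The cold sensor Trpm8 was low throughout and had no adult count, at least 5.26-fold lower than fetal (edgeR adjusted p = 0.000192).

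Trpc1, Trpc4 and Trpc6, calcium-permeable channels opened downstream of phospholipase C, were lower in adult than fetal cultures. Trpc6, which is gated by diacylglycerol, was at 49.96, 52.5 and 14 CPM (fetal), 60.1, 60.2 and 63.1 CPM (neonatal) and 9.34, 13.6 and 18.3 CPM (adult). Neonatal libraries were highest, and fetal replicate 3 lay inside the adult range. The adult to neonatal log2 fold change was -2.15 (edgeR adjusted p = 0.00279), and the adult to fetal one, -1.50 (edgeR adjusted p = 0.0147), was lost without fetal replicate 2 and without adult replicate 1 (highest adjusted p 0.0527). Trpc1 was at 10.3, 13.1 and 9.83 CPM (fetal), 11.9, 14.2 and 13.1 CPM (neonatal) and 3.29, 4.7 and 5.17 CPM (adult). Adult libraries were below the others (-1.58 from neonatal, edgeR adjusted p = 8.82e-05). Trpc4 fell earlier, between fetal and neonatal cultures (-3.30, edgeR adjusted p = 0.00555, and -2.59 without fetal replicate 3).

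Piezo1 (chr19:55305494-55367353, minus strand), the stretch-gated cation channel, was the most abundant ion channel gene in fetal cultures per kilobase and among the leading 3 at the other ages. It was at 295, 279 and 197 CPM (fetal), 268, 289 and 284 CPM (neonatal) and 318, 326 and 322 CPM (adult). Fetal replicate 3 was the lowest, and the 3 adult libraries were within 8 CPM of each other and above the rest. The call for the adult to fetal log2 fold change of 0.33 (edgeR adjusted p = 0.0473) was lost under the 2-fold limit and in 9 other alternatives tried (highest adjusted p 0.107). Piezo1 shares exon bases with Ctu2, where no reads were assigned.

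**Figure D4:**
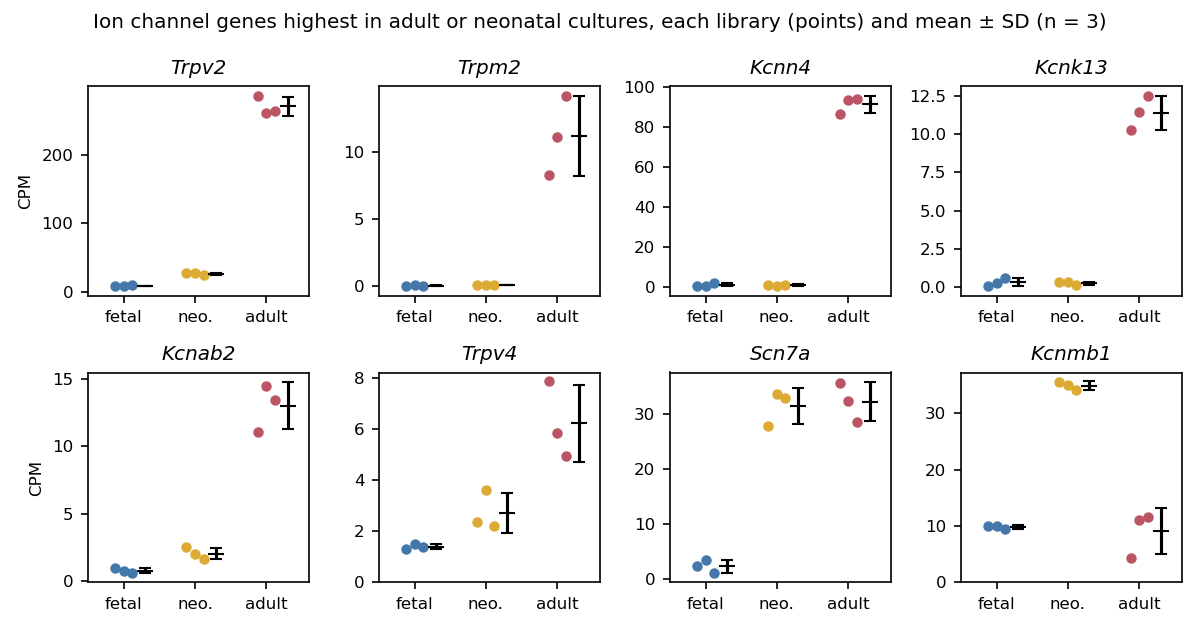
Level of 8 ion channel genes highest in adult or neonatal cultures, in CPM (vertical axis of each panel, linear, starting at or just below 0), for the 3 libraries of each age (points) with mean ± SD beside them. Trpm2, Kcnn4 and Kcnk13 are near 0 in all 6 fetal and neonatal libraries, Scn7a is low in the fetal ones alone, and Kcnmb1 peaks in the neonatal ones.

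Macrophage markers rose over the same ages as Trpv2, Trpm2, Kcnn4, Kcnk13 and Kcnab2. All 14 were higher in adult than fetal libraries (100%, beside 34.9% of all genes), with Lyz2 the highest. In neonatal libraries their sum, 178 to 197 CPM, lay above the fetal range. Trpv2 and Kcnab2 rose at both steps, as the marker sum did. Trpm2, Kcnn4 and Kcnk13 were not called between fetal and neonatal libraries. From fetal and from neonatal to adult, log2 fold changes were 7.61 and 6.59 (Trpm2), 6.22 and 6.35 (Kcnn4) and 5.06 and 5.36 (Kcnk13). Between fetal and neonatal libraries 4 of the 14 markers were not called. Their log2 fold changes were -0.105 (Adgre1), 1.72 (Aif1), 1.999 (Tyrobp) and 1.31 (Fcer1g), with edgeR adjusted p of 0.906, 0.0657, 0.0708 and 0.136. The other 10 were higher (71.4%, beside 18.3% of all genes). The untested Kcna3, a lymphocyte and macrophage potassium channel, had 12, 5 and 14 counts in adult libraries and 0 to 3 elsewhere. The part of macrophage RNA in these differences was not tested.

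Chloride channel and exchanger genes moved in opposite directions, with 3 of the 5 tested higher and 2 lower in adult than fetal cultures. That is 60% higher and 40% lower, beside 34.9% and 35.5% of all genes. The sum over Clcn genes was 40.2 to 42.5, 39.8 to 43.7 and 41.9 to 45.3 CPM per kb in the 3 ages, which overlapped. Clcn7, the lysosomal exchanger, was at 41.5, 39.7 and 32.4 CPM (fetal), 54.7, 56.5 and 51.9 CPM (neonatal) and 79.2, 78.5 and 72.9 CPM (adult). It rose at each step (0.52, edgeR adjusted p = 0.00326, then 0.50, edgeR adjusted p = 0.00133). The endosomal exchanger Clcn3 fell over the same steps, at 42.4, 48.5 and 47.1 CPM (fetal), 32.1, 34.7 and 32.1 CPM (neonatal) and 9.87, 16.3 and 13.9 CPM (adult). Its adult to fetal log2 fold change was -1.78 (edgeR adjusted p = 6.4e-06). Clcn5, another endosomal exchanger, was lower in adults (-1.94, edgeR adjusted p = 6.4e-05), and Clcn4 rose from a low level (2.25, edgeR adjusted p = 0.000132). Clcn6 was slightly higher in adults (0.30, edgeR adjusted p = 0.0048), a call lost when library size alone set the scale (adjusted p 0.109).

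Anoctamin genes were dominated by Ano6, a calcium-activated scramblase and channel found in most cells, at 132, 137 and 120.1 CPM (fetal), 164, 163 and 154 CPM (neonatal) and 166, 163 and 163 CPM (adult). It was slightly higher in the 2 later ages (adult versus fetal 0.34, edgeR adjusted p = 0.0012). The neonatal to fetal call (0.30, edgeR adjusted p = 0.00689) was lost when library size alone set the scale (adjusted p 0.0862). Ano1 (chr1:217754349-217902473, minus strand), the calcium-activated chloride channel of smooth muscle, epithelia and pacemaker cells of the gut, was at 47.3, 46.1 and 54.3 CPM in the fetal libraries, 5.12, 5.2 and 5.89 CPM in the neonatal libraries and 0.306, 0.65 and 0.599 CPM in the adult libraries. It fell about as far from fetal to neonatal (-3.19, edgeR adjusted p = 2.04e-06) as from neonatal to adult cultures (-3.35, edgeR adjusted p = 1.56e-06), and the 3 ages did not overlap. Ano4 peaked in neonatal libraries, at 5.41 ± 0.35 CPM against 1.06 ± 0.39 CPM in fetal and 2.41 ± 0.116 CPM in adult ones (mean ± SD, n = 3).

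**Figure D5:**
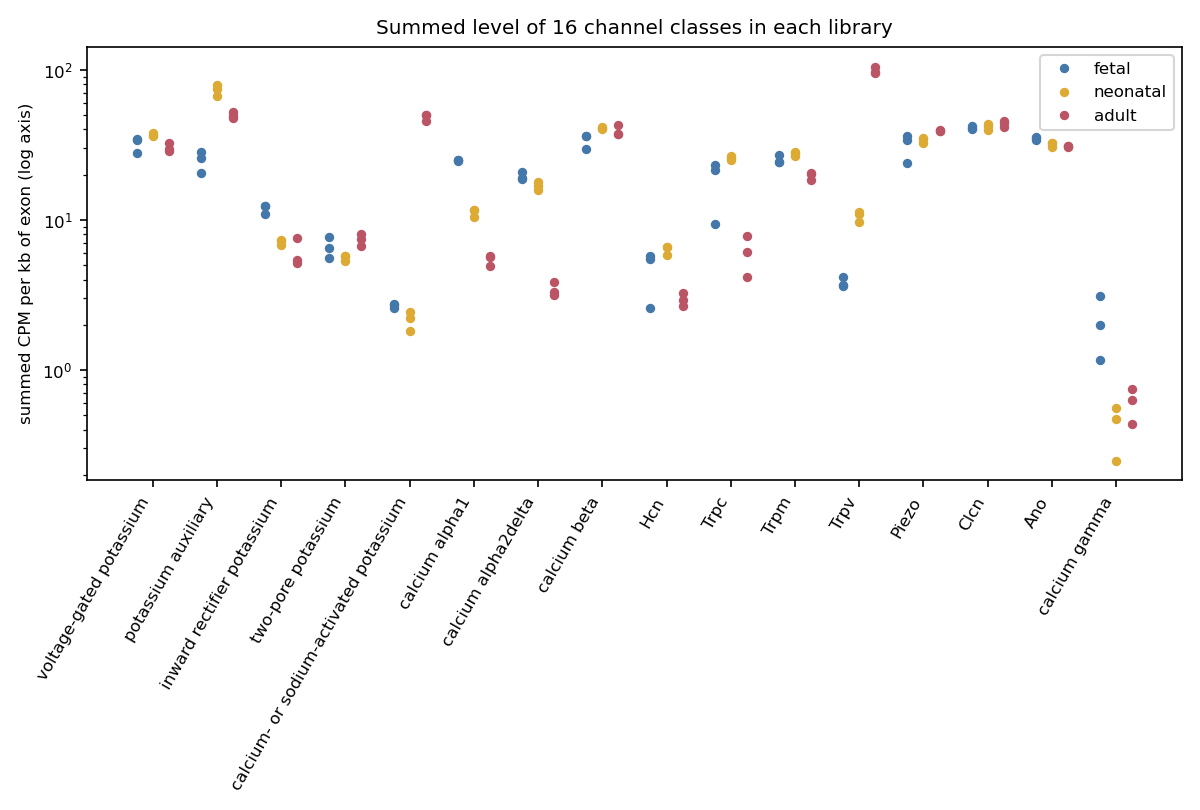
Summed level of 16 ion channel classes in each library, in CPM per kilobase of exon (vertical axis, log scale), with 1 point per library coloured by age. Trpv genes and calcium- or sodium-activated potassium genes were highest in adult libraries, calcium alpha1 and alpha2delta genes lowest there, and Clcn and calcium beta genes moved little.

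Compared per kilobase of exon, the leading genes changed with age. In fetal cultures Piezo1 (31.3 CPM per kb), Cacnb3 (25.5) and Ano6 (23.8) led. In neonatal cultures the leaders were Kcne4 (39.6), Cacnb3 (35.8) and Piezo1 (34.2). In adult cultures they were Trpv2 (96.3), Kcnn4 (47.3) and Piezo1 (39.3). Piezo1 was among the leading 3 at every age.

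Of the 88 untested genes, 34 had 3 counts or fewer in every library and 13 of those had none. Among the 13 were Kcnip2, the calcium-binding partner of Kcnd channels, and Kcnk6. In the annotation used for the counts (rn6), exons listed under Kcnip2 lie up to 2633270 bases apart and on both strands, and those under Kcnk6 up to 993616 bases apart, so a 0 for these genes is a listed value and was not read as absence. Clcn2, with 1 count in all, has exons 1007728 bases apart. Kcna5 (0 to 8 counts) and Kcne1 (0 to 14) had no more than 1 count in any adult library. Cacna1i had 65 counts in fetal replicate 3, 13 in fetal replicate 1 and 4 or fewer elsewhere.

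Genes that work beside these channels were counted for comparison: 66 other channels, pumps and exchangers, of which 53 were tested. From fetal to adult, 20 were higher and 18 lower (71.7%, beside 70.5% of all genes), with a median log2 fold change of 0.14. The ion channel genes had 22 and 39 (79.2%) and a median of -1.0. From fetal to neonatal, 17 were higher and 6 lower (43.4%, beside 36.3% of all genes). From neonatal to adult there were 18 and 18 (67.9%, beside 63.5%). No test compared the 2 lists, and the filter on low counts acts on both. The largest falls were in Ryr2, the calcium release channel of heart muscle, from 77.1 to 0.0998 CPM (edgeR adjusted p = 5.4e-08), and Clic6. The largest rises were in the endolysosomal channels Mcoln2, from 0.116 to 40.6 CPM (edgeR adjusted p = 1.5e-07), and Mcoln3. Ryr2 is also a cardiomyocyte marker of the list above, and its adult counts all lay in replicate 3.

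Without fetal replicate 3 the counts were 17 higher and 25 lower from fetal to neonatal and 25 higher and 45 lower from fetal to adult cultures, out of 86 genes then tested. Without neonatal replicate 1, 14 of 91 were lower from fetal to neonatal cultures in place of 22 of 77, while calls in either direction over all genes came to 2607 of 11538 in place of 4114 of 11337.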

How the data were processed

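RNA of cultured cells was sequenced in 9 libraries (3 ages, 3 libraries each), and the deposited table gives read counts per gene. Per the submitters' processing notes the authors used FastQC, Trimmomatic 0.39, STAR 2.5.2b, featureCounts (Subread 1.6.3) and DESeq2. Per the file headers the counts came from featureCounts 1.6.3 with an rn6 annotation and default options: reads were counted without strand, reads mapping to several places or to 2 genes were left out, and so antisense or near-identical genes may be undercounted or mixed. A second deposited table of normalized values was not used.

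From the counts, edgeR 4.0.16 (R 4.3.3) was fitted over all 9 libraries with age as the factor (TMM, filterByExpr, robust quasi-likelihood test), with Benjamini-Hochberg adjustment over 11337 genes. Only the low-count filter decided which of the 165 members were tested. CPM uses TMM-scaled library sizes, and the per-kilobase level divides CPM by the exon bases of the gene per 1000. Folds against an age with no count use a floor of 3 counts in each library. Ratios with an age of at most 5 counts per library carry 95% exact conditional Poisson intervals, which cover counting error alone. Library totals of 13392825 to 22850491 put 3 counts at 0.132 to 0.23 CPM.

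Named genes are, for each pair of ages and direction, the 6 largest called changes without overlap and with at least 1 CPM in the higher age, the 2 most abundant of each class per kilobase, a panel of 41 heart and fibroblast channels, and the 2 largest changes in each direction of the comparison list. Other genes named with values were chosen after their values were seen. Some genes that the rule names are not reported here, and they are left out of the plots of single genes. The members and all lists were chosen with earlier results of these data known. Promoters and symbols came from RefSeq (GRCr8), and rn6 positions from the count table. The scripts were tested on simulated counts. Alternatives tried were DESeq2 1.42.0, its size factors, library size alone, no low-count filter, a 2-fold limit, a fit of the 2 ages compared alone, the replicate number as a block, and leaving out each library.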

Additional observations from a re-analysis of the deposited data

How the results depend on the processing

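No alternative reversed any of the 161 called differences of the tested ion channel genes and the 4 named comparison genes. DESeq2's size factors kept all of them past the threshold, DESeq2 lost 1 (Cacna1e, neonatal versus fetal, adjusted p 0.0553) and the replicate block lost 3 (that one, 0.0683, and Cacnb1 between neonatal and either other age, 0.0858 and 0.0619). With the replicate block the counts of ion channel genes were 17 higher and 21 lower (neonatal versus fetal), 22 and 39 (adult versus fetal) and 14 and 37 (adult versus neonatal). Same-numbered libraries of different ages did not deviate together (correlations of -0.065 to 0.052, other numbers -0.055 to 0.08), so the numbers were not read as pairs. Requiring a 2-fold difference left 9 genes higher from neonatal to adult in place of 15 (fewer genes can pass). Leaving out each library gave 13 to 17 higher and 14 to 26 lower for neonatal versus fetal, 21 to 25 and 38 to 45 for adult versus fetal, and 15 to 22 and 37 to 43 for adult versus neonatal. The lowest count of 14 came without neonatal replicate 1, and it was 16 without neonatal replicate 2 or 3. Without a fetal or adult library it was 21 to 26. Between 14 and 15 of the 161 were lost without any given neonatal library and 3 to 7 without any other. Library size alone lost 5, no low-count filter 4, and the 2-fold limit 24 of them, and the fit of the 2 ages alone 3 of the 154 it could test. Scaling by library size alone moved the median of all genes by -0.17 from fetal to neonatal, where 29% of called genes were then higher in place of 50.4%, and ion channel genes split 13 higher to 25 lower. From fetal to adult that shift was -0.11. Without the low-count filter 152 ion channel genes were tested, with 27 higher and 57 lower from fetal to adult. Depth limits the low genes: in an adult library 3 counts equal 0.217 to 0.23 CPM.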
